A study of Mus musculus with 9 samples.

Results

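The genes described here are 9 genes of vitamin A storage and metabolism, Lrat, Rbp4, Stra6, Retsat, Rdh10, Aldh1a1, Aldh1a2, Aldh1a3 and Dgat1, chosen by symbol from the 24453 genes of the table, in which all 9 were found. They were measured by RNA sequencing in 9 mouse liver libraries, 3 per group (HSCs, CCl4-fib, NASH-fib), and the cells of 3 to 5 mice were combined for each. HSCs were enriched by density gradient from untreated wild-type C57BL/6J livers, and their purity was judged from cell shape and from the ultraviolet autofluorescence that retinoid droplets give. CCl4-fib were sorted CD45- GFP+ cells of Col1a2-GFP Tg mice that received CCl4 in olive oil intraperitoneally 2 times per week for 8 weeks. NASH-fib were sorted CD45- GFP+ cells of male MC/COL mice, which carry the Col1a2-GFP transgene and lack MC4R, on WD for 20 weeks from 8 weeks of age. In both sorted groups GFP was driven by the collagen α2(I) promoter, which the sorting gate selected for, and the purity of the sorted cells was not tested. Isolation by gradient or by sorting, the transgene, the genotype and the treatment all differ between the groups in this way, and their contributions to a difference from HSCs cannot be told apart. The libraries were amplified before sequencing and held 3071070 to 3825522 reads on genes for HSCs, 4687349 to 5634273 for CCl4-fib and 3289758 to 5021156 for NASH-fib. The values below are normalised reads, counts that the authors scaled to one total per library, and 3 reads correspond to a value of 2.38 to 4.37. Mc4r, the deleted gene, was read 4 times in NASH-fib replicate 1, 13 times in replicate 2 and 0 times in replicate 3 and in all other libraries, so it could not check the labels.

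HSCs hold most of the vitamin A of the body as retinyl esters in lipid droplets, and loss of these droplets is a classical feature of their activation to collagen-producing cells. Retinol travels in blood bound to retinol binding protein, enters cells, and is esterified for storage or oxidised through retinaldehyde to retinoic acid, the ligand of nuclear receptors that regulate transcription. Of the 9 genes, Rbp4 encodes the plasma carrier of retinol and Stra6 a membrane receptor for that carrier. Lrat encodes lecithin-retinol acyltransferase, which forms retinyl esters, and Dgat1 a diacylglycerol acyltransferase that can also esterify retinol. Retsat encodes an enzyme that saturates retinol, Rdh10 the dehydrogenase that makes retinaldehyde, and Aldh1a1, Aldh1a2 and Aldh1a3 the dehydrogenases that turn retinaldehyde into retinoic acid.

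Promoter sequences of RefSeq (GRCm38.p6, the build called mm10) were matched for 6 of the 9 genes, namely Lrat, Rbp4, Stra6, Retsat, Aldh1a1 and Aldh1a2. Those of 4 genes are shown because these are the genes whose level differed between CCl4-fib and HSCs, a pair of them lower in CCl4-fib (Lrat and Rbp4) and a pair higher (Stra6 and Aldh1a2). Each runs 5′ to 3′ from 250 bases before the transcription start to 50 bases after it, and capitals mark, on either strand, the TATA box core TATAA, the GC box GGGCGG, the CCAAT box (those 5 letters) and the nuclear receptor half-site AGGTCA.
Lrat, chr3:82903925-82904224, minus strand: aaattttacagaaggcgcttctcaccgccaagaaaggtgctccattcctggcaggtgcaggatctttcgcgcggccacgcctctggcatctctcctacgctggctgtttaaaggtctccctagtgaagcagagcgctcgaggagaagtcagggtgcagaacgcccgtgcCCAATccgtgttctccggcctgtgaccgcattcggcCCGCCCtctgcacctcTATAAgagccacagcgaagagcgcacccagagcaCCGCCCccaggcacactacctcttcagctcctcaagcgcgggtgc
Rbp4, chr19:38124762-38125061, minus strand: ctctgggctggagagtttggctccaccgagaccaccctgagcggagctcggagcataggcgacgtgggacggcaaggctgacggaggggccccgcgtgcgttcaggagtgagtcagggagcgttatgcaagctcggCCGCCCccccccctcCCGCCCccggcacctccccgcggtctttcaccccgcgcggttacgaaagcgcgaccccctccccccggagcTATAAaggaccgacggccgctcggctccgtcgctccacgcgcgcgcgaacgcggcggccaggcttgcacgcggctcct
Stra6, chr9:58129099-58129398, plus strand: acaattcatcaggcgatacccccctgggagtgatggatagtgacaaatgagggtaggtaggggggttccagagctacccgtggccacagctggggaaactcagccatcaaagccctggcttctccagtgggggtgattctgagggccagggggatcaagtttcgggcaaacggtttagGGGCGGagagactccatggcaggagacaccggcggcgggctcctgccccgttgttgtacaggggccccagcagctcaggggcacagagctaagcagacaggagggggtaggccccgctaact
Aldh1a2, chr9:71215539-71215838, plus strand: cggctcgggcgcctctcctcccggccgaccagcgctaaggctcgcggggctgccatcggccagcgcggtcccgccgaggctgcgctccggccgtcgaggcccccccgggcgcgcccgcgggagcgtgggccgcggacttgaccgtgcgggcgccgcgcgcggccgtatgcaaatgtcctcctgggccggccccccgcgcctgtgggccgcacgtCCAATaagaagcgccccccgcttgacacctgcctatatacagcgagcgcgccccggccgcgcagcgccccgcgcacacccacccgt
The Lrat and Rbp4 windows both hold TATAA, at positions -29 and -28 relative to the start, and GGGCGG on the opposite strand, at 2 positions each. The Stra6 window holds only GGGCGG, and the Aldh1a2 window only CCAAT, at position -36. Over the 6 windows, TATAA was found in 3, GGGCGG in 4, CCAAT in 3 and AGGTCA, a half-site of nuclear receptors, in 0. Of 32851 mouse promoters of the same length, with those of a single chromosome left out, 24.9% hold TATAA, 35.7% GGGCGG, 37.4% CCAAT and 16.3% AGGTCA. These matches describe the letters of the windows and were not set against binding or expression, and GENCODE places an upstream start of Stra6 outside the window shown.

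Lrat was lower in both fibroblast groups than in HSCs, Rbp4 was lower in CCl4-fib, Aldh1a2 was higher in both fibroblast groups, Stra6 was higher in CCl4-fib, and Aldh1a3 was lower in NASH-fib than in either other group. Retsat, Rdh10, Aldh1a1 and Dgat1 did not pass the test in any comparison. Calls required a doubling or halving (an absolute log2 fold change of 1 or more) together with an adjusted p below 0.05, by limma with Benjamini-Hochberg adjustment over 13651 genes. Between CCl4-fib and HSCs, 4 of the 9 genes were called, 2 higher and 2 lower in CCl4-fib, against 27.8% of all tested genes (16.2% higher and 11.7% lower). In NASH-fib 3 of the 9 differed from HSCs by the same rule, 2 lower and 1 higher, against 12.5% of all tested genes (8.23% higher and 4.30% lower). Between NASH-fib and CCl4-fib, 2 of the 9 were called, both lower in NASH-fib, against 10.6% of all tested genes (4.97% higher and 5.66% lower). Over all genes that was 678 higher and 773 lower in NASH-fib, a split that edgeR turned to 802 higher and 563 lower. The first 2 comparisons share the HSC libraries. The median log2 fold change of the 9 genes was 0.45, -0.00079 and -0.45 in these comparisons, and that of all tested genes 0.18, -0.02 and -0.11. All 3 libraries of one group lay outside the range of the other for 6 of the 9 genes between CCl4-fib and HSCs, where this held for 48.6% of all tested genes. It held for 3 of the 9 between NASH-fib and HSCs, against 24.4% of all tested genes, and for 4 of the 9 between NASH-fib and CCl4-fib, against 39.1%. Fold changes were computed on log2(value + 1), a scale that understates the change of genes with low values. In these bulk libraries, fewer cells that express a gene and less of its RNA per cell cannot be told apart.

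**Figure D1:**
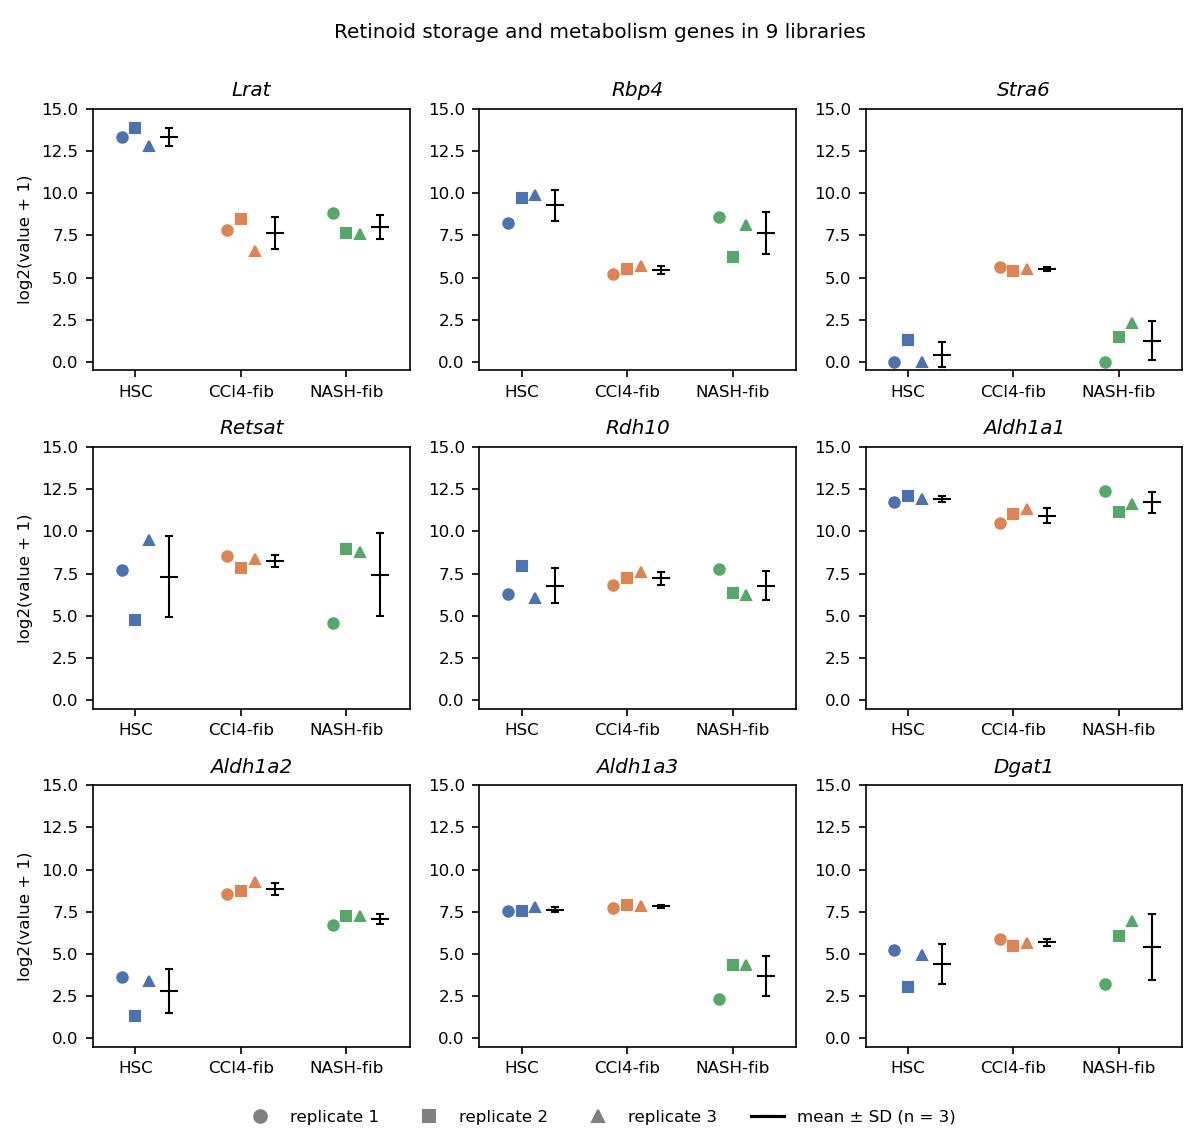
Values of the 9 genes as log2(value + 1) in each of the 9 libraries, with markers for the replicates and the mean ± SD (n = 3) of each group to the right of its points. Lrat drops from HSCs to both fibroblast groups, Stra6 stands out in CCl4-fib, Aldh1a2 is higher in both fibroblast groups, Aldh1a3 is low in NASH-fib, and HSC replicate 2 and NASH-fib replicate 1 hold the lowest Retsat and Dgat1.

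**Figure D2:**
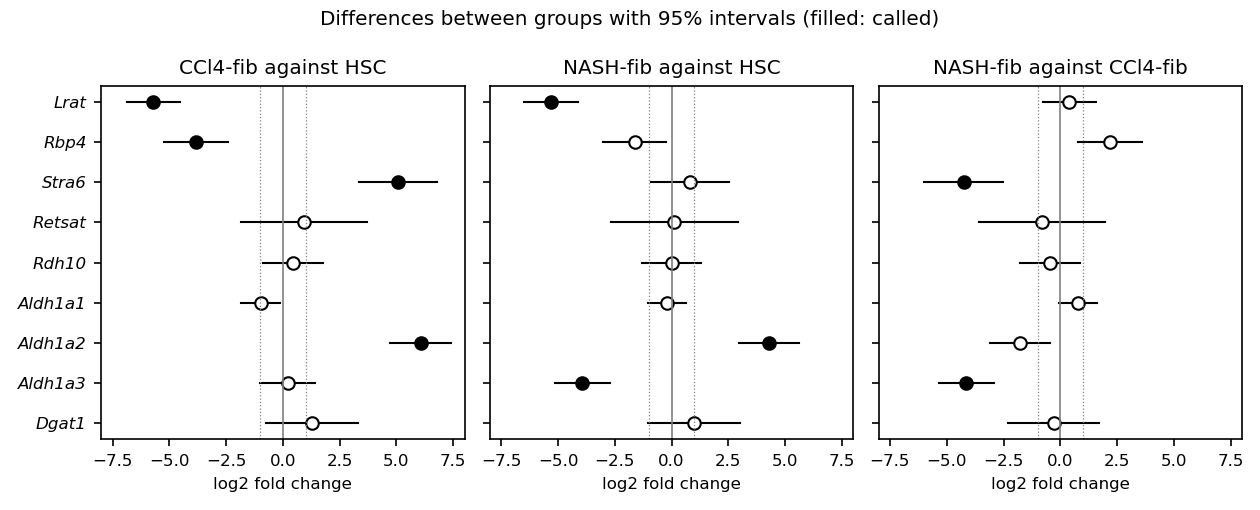
Log2 fold changes of the 9 genes in the 3 comparisons, with 95% intervals from the limma fit. Filled points are called genes, and dotted lines mark a log2 fold change of 1 in either direction. The 9 filled points are Lrat, Rbp4, Stra6 and Aldh1a2 in the first panel, Lrat, Aldh1a2 and Aldh1a3 in the second and Stra6 and Aldh1a3 in the third.

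Among the genes of storage, Lrat (NM_023624, mm10 chromosome 3, 82892582 to 82903974, minus strand) was far more abundant in HSCs than in either fibroblast group. Its values were 10234, 14894 and 7070.5 in HSC replicates 1, 2 and 3, 225, 348 and 95.4 for CCl4-fib and 458, 200.4 and 189 for NASH-fib. Every fibroblast library lay more than an order of magnitude below every HSC library, while the 2 fibroblast groups overlapped. The mean was 10733 ± 3935 (SD, n = 3) for HSCs, 48.2 times that of CCl4-fib and 38.0 times that of NASH-fib. The log2 fold change was -5.70 (standard error, SE, 0.53, adjusted p = 6.02e-05, limma) in CCl4-fib and -5.30 (SE 0.53, adjusted p = 0.000128, limma) in NASH-fib. Between NASH-fib and CCl4-fib the difference was 0.40 (95% interval -0.78 to 1.58, adjusted p = 0.643, limma), and its sign turned under 4 of 22 alternative settings. Lrat reached 1.91 reads per exon base in HSCs, and the counting kept at most 3 reads per position, which can hold down the highest values. Of 10 other genes listed for quiescent stellate cells, 9 were tested. In CCl4-fib 6 were called lower than in HSCs, beside 11.7% of all tested genes, and in NASH-fib 8, beside 4.30%. Ecm1 and Hand2 were not called in CCl4-fib, with log2 fold changes of -0.87 and -1.15 (adjusted p = 0.447 and 0.0776, limma). The intermediate filament gene Des, with means of 168, 334 and 543 in HSCs, CCl4-fib and NASH-fib, had log2 fold changes of 1.49 and 1.15 and was not called. The 10 genes had summed values of 20635 to 35201 for HSCs, 2102 to 5698 for CCl4-fib and 1759 to 4068 for NASH-fib.

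Dgat1 (NM_010046, chromosome 15, 76502015 to 76511818, minus strand) was present at low values in every group. It had values of 36.2, 7.28 and 29.9 for HSCs, 57.9, 44.2 and 49.6 for CCl4-fib and 8.16, 65.0 and 121 for NASH-fib. All CCl4-fib libraries lay above all HSC libraries, and NASH-fib overlapped both groups. The log2 fold change was 1.27 (95% interval -0.74 to 3.28) in CCl4-fib and 0.98 (95% interval -1.03 to 2.99) in NASH-fib against HSCs, and neither passed the test, with adjusted p = 0.316 and 0.634 (limma). These intervals leave room for differences in either direction.

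For transport, Rbp4 (NM_011255, chromosome 19, 38116620 to 38124811, minus strand) had values of 298, 836 and 956 for HSCs, 35.7, 44.2 and 49.6 for CCl4-fib and 379, 74.8 and 280.1 for NASH-fib. CCl4-fib libraries were the lowest throughout, NASH-fib libraries lay above all of them, and NASH-fib and HSCs overlapped. The log2 fold change was -3.83 (SE 0.63, adjusted p = 0.00147, limma) in CCl4-fib against HSCs, a ratio of means of 16.1. NASH-fib differed from HSCs by -1.63 (95% interval -3.02 to -0.23, adjusted p = 0.141, limma) and from CCl4-fib by 2.20 (95% interval 0.80 to 3.59, adjusted p = 0.0506, limma), and neither was called. The last difference was called under 9 of 22 alternative settings.

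Rbp4 is also abundant in hepatocytes, and some but not all listed markers of hepatocytes varied between the libraries along with it. Apoa1 did not, with means of 296 in HSCs, 178 in CCl4-fib and 102 in NASH-fib. Its log2 fold change in CCl4-fib against HSCs was -0.36 (adjusted p = 0.744, limma). The albumin gene Alb had values of 9062, 14161 and 11657 for HSCs, 679, 617 and 829 for CCl4-fib and 14897, 1787 and 7894 for NASH-fib. Over the 9 libraries Rbp4 spanned a 26.8-fold range and Alb a 24.2-fold range, whereas the ratio of Rbp4 to Alb, between 25.5 and 82.1 per 1000, spanned 3.22-fold. The summed value of 15 hepatocyte genes was 30189 to 66184 for HSCs, 11959 to 15738 for CCl4-fib and 12429 to 37655 for NASH-fib, and all 15 were detected in every group. The transferrin gene Trf, with 9622 to 12316 in CCl4-fib and 3501 to 8240 in HSCs, made up most of that sum in CCl4-fib. Relative to the sum of all 15 genes, Rbp4 was 9.87 to 20.7 per 1000 in HSCs, 2.99 to 3.39 in CCl4-fib and 6.02 to 10.1 in NASH-fib, a 6.92-fold range with CCl4-fib below every other library. Relative to the list without Trf, a ratio formed after the values were seen, Rbp4 ran from 11.2 to 24.7 per 1000 in HSCs, from 14.5 to 19.0 in CCl4-fib and from 9.92 to 11.6 in NASH-fib, a 2.49-fold range in all. On this second ratio CCl4-fib lay within the range of HSCs and above all NASH-fib libraries. With the mean level of the hepatocyte list as a term of the fit, the difference of CCl4-fib from HSCs was -0.43 (adjusted p = 0.932, limma) and that of NASH-fib from CCl4-fib -0.33 (adjusted p = 0.960, limma). In that fit, of the 13651 genes 21 were called higher and 8 lower in CCl4-fib than in HSCs (1391 at an unadjusted p under 0.05) and 0 between NASH-fib and CCl4-fib (853 at an unadjusted p under 0.05), and Lrat, Stra6 and Aldh1a2 lost their calls in the first of these comparisons as well, with log2 fold changes of -5.91, 5.24 and 5.86 (adjusted p = 0.124, 0.334 and 0.157, limma).

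**Figure D3:**
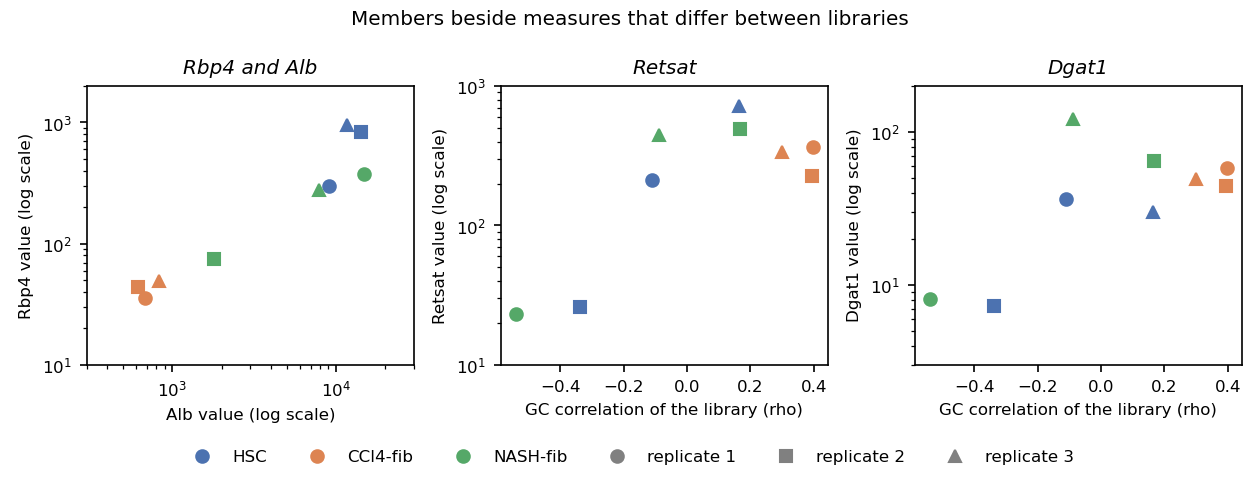
Left, Rbp4 against Alb in the 9 libraries, both as values on log axes, with CCl4-fib at the low end of both genes. Middle and right, Retsat and Dgat1 (values on a log axis) against the Spearman rho between the GC content of genes and their deviation in that library, where the 2 libraries of the lowest rho, NASH-fib replicate 1 and HSC replicate 2, hold the 2 lowest values of each gene.

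Stra6 (NM_009291, chromosome 9, 58129349 to 58153997, plus strand), the receptor gene, was detected at an appreciable level in CCl4-fib alone. Its values were 0, 1.46 and 0 for HSCs, 49.2, 40.8 and 44.8 for CCl4-fib and 0, 1.78 and 3.93 for NASH-fib. These correspond to 1 read over all HSC libraries, 157 over CCl4-fib and 6 over NASH-fib. All 3 CCl4-fib libraries lay close together and far above the other 6. Per read sequenced, CCl4-fib held 107 times as many Stra6 reads as HSCs (95% exact interval 19.0 to 4261) and 21.6 times as many as NASH-fib (95% exact interval 9.70 to 59.8), where the intervals cover counting error only. The log2 fold change of CCl4-fib against HSCs was 5.09 (SE 0.78, adjusted p = 0.000949, limma). NASH-fib differed from CCl4-fib by -4.26 (SE 0.78, adjusted p = 0.0131, limma), a call that was lost without CCl4-fib replicate 2 (adjusted p = 0.0569, limma). Between NASH-fib and HSCs the difference was 0.83 (95% interval -0.89 to 2.55), and at 6 reads against 1 it was not detectable at this depth.

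The genes of retinol conversion spread widely within HSCs and NASH-fib. Retsat (NM_026159, chromosome 6, 72598628 to 72607488, plus strand) had values of 210.4, 26.2 and 714 for HSCs, 366, 228 and 335 for CCl4-fib and 23.1, 489 and 443 for NASH-fib. The means of the 3 groups, 317, 310 and 318 in the same order, were almost equal, but HSCs and NASH-fib each contained 1 library far below the others, replicate 2 and replicate 1. The log2 fold changes of 0.93, 0.12 and -0.81 in CCl4-fib against HSCs, NASH-fib against HSCs and NASH-fib against CCl4-fib had standard errors of 1.26 and changed sign under 4 of 22 alternative settings each. Retsat shares 650 exon bases with Gm45053 on the opposite strand, and reads of either strand were counted, so reads of the 2 genes cannot be told apart.

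Rdh10 (NM_133832, chromosome 1, 16105882 to 16132550, plus strand) had values of 77.15, 249.0 and 65.8 for HSCs, 112, 153 and 192 for CCl4-fib and 216, 79.3 and 73.7 for NASH-fib. The groups overlapped in every comparison, and here HSC replicate 2 and NASH-fib replicate 1 were the highest libraries of their groups. No difference was called, with log2 fold changes of 0.45, -0.00079 and -0.45 (SE 0.59 each).

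The libraries in which Retsat and Dgat1 were lowest and Rdh10 highest within HSCs and NASH-fib, HSC replicate 2 and NASH-fib replicate 1, stood apart in GC content. Across 13167 genes, which are not independent replicates, the Spearman rho between a gene's GC content and its deviation from the mean over libraries was -0.34 and -0.54 in these libraries and lay between -0.11 and 0.40 in the other 7. Retsat and Dgat1 are rich in GC (54.0% and 56.5%, percentiles 72.9 and 85.1 of tested genes), and Rdh10 is poor in it (39.2%, percentile 3.62). Both libraries also share the first part of their labels with CCl4-fib replicate 1, in which rho was 0.40. Without these 2 libraries, an alternative chosen after the values were seen, the log2 fold change of Rdh10 in CCl4-fib against HSCs was 1.05 (adjusted p = 0.0498, limma), and with a smooth GC curve taken out of each library it was 1.12 (adjusted p = 0.0394, limma). Retsat and Dgat1 remained without a call in both settings, and the 9 calls reported for Lrat, Rbp4, Stra6, Aldh1a2 and Aldh1a3 held in both.

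The retinaldehyde dehydrogenases differed from each other in their pattern. Aldh1a1 (NM_013467, chromosome 19, 20601982 to 20643462, plus strand) was abundant throughout, with values of 3399, 4415 and 3907 for HSCs, 1442, 2065 and 2549 for CCl4-fib and 5363, 2302 and 3146 for NASH-fib. CCl4-fib libraries lay below all HSC libraries, and NASH-fib overlapped both groups. The log2 fold change was -0.98 (SE 0.38, adjusted p = 0.0798, limma) in CCl4-fib and -0.20 (SE 0.38, adjusted p = 0.864, limma) in NASH-fib against HSCs, and 0.78 (SE 0.38, adjusted p = 0.202, limma) between NASH-fib and CCl4-fib. None of these was called. Aldh1a1 reached 1.96 reads per exon base, and reads on its close paralog Aldh1a7 amounted to 2.06% to 19.2% of its own, so a share of reads could be assigned to either gene.

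Aldh1a2 (NM_009022, chromosome 9, 71215789 to 71296243, plus strand) was scarce in HSCs and present in every fibroblast library. Its values were 11.7, 1.46 and 9.56 for HSCs, 379, 426 and 605 for CCl4-fib and 106, 151 and 150.4 for NASH-fib, so the 3 groups did not overlap. Mean values were 62.1 times higher in CCl4-fib and 18.0 times higher in NASH-fib than in HSCs. The log2 fold change against HSCs was 6.06 in CCl4-fib (SE 0.60, adjusted p = 7.69e-05, limma) and 4.29 in NASH-fib (SE 0.60, adjusted p = 0.000898, limma). NASH-fib differed from CCl4-fib by -1.77 (95% interval -3.10 to -0.44, adjusted p = 0.0850, limma), which was not called but was under 5 of 22 alternative settings. Aldh1a2 is a known gene of mesothelial cells, whose 5 listed markers summed to 594 to 945 for HSCs, 15517 to 21730 for CCl4-fib and 24622 to 31163 for NASH-fib. This sum was higher in NASH-fib than in CCl4-fib and was made up mostly of Gpm6a in NASH-fib replicate 1 (21261 of 26217). The means of 2 of the 5 markers were lower in NASH-fib than in CCl4-fib, as that of Aldh1a2 was. Wt1 was at 860 to 1649 in CCl4-fib and 379 to 466 in NASH-fib (log2 fold change -1.67, adjusted p = 0.0215, limma). Upk3b had a log2 fold change of -2.33 (adjusted p = 0.0968, limma, not called). Those of Gpm6a, Msln and Upk1b went the other way, at 1.13, 0.42 and 0.058, and none of these was called. All 5 markers were called higher than in HSCs in both fibroblast groups, beside 16.2% of all tested genes in CCl4-fib and 8.23% in NASH-fib. The part of mesothelial cells in the levels of Aldh1a2 was not tested.

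Aldh1a3 (NM_053080, chromosome 7, 66390893 to 66427477, minus strand) was the member that set NASH-fib apart from both other groups. Its values were 182, 186 and 221 for HSCs, 212, 237 and 229.9 for CCl4-fib and 4.08, 19.6 and 19.7 for NASH-fib, the last from 3, 22 and 20 reads. HSCs and CCl4-fib overlapped, with a log2 fold change of 0.21 (95% interval -0.99 to 1.40, adjusted p = 0.799, limma). NASH-fib lay below every other library, with a log2 fold change of -3.93 against HSCs (SE 0.54, adjusted p = 0.000812, limma) and -4.13 against CCl4-fib (SE 0.54, adjusted p = 0.00567, limma). The ratio of means was 13.6 and 15.7 in these comparisons. NASH-fib replicate 1 was the lowest library, and without it and HSC replicate 2 the log2 fold changes were -3.29 and -3.46, both called. With the hepatocyte term, the difference from CCl4-fib was -3.87 (adjusted p = 0.642, limma).

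Per length, as RPKM computed from the recovered reads and the exon lengths of the table, Aldh1a1 made up 96.5% to 97.5% of the 3 dehydrogenase transcripts for HSCs, 75.6% to 79.8% in CCl4-fib and 94.0% to 98.2% in NASH-fib. The share of Aldh1a2 was 0.029% to 0.298% for HSCs, 14.8% to 17.8% in CCl4-fib and 1.74% to 5.545% in NASH-fib, and that of Aldh1a3 was 2.45% to 3.26%, 4.24% to 6.62% and 0.045% to 0.477%. The composition in CCl4-fib was thus outside the range of the other groups for all 3 genes. Aldh1a2 exceeded Aldh1a3 in all 6 fibroblast libraries, and Aldh1a3 exceeded Aldh1a2 in all 3 HSC libraries.

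**Figure D4:**
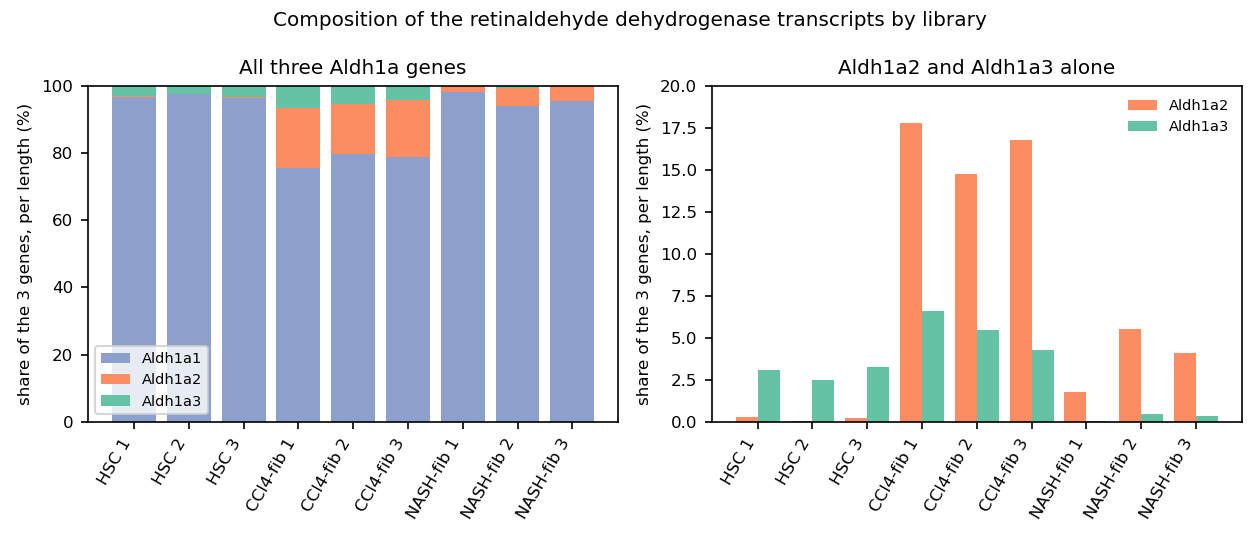
Left, shares of Aldh1a1, Aldh1a2 and Aldh1a3 in their summed RPKM in each library (stacked bars, %). Right, the shares of Aldh1a2 and Aldh1a3 on an enlarged axis. Aldh1a2 takes 14.8% to 17.8% in CCl4-fib and at most 5.545% in the other libraries, and Aldh1a3 falls to at most 0.477% in NASH-fib.

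The order of the 9 genes per length also differed by group. In HSCs, Lrat (449 ± 165 RPKM, SD, n = 3) and Aldh1a1 (433 ± 56.3) led and overlapped, followed by Rbp4 (169 ± 85.0), which overlapped Retsat (36.8 ± 41.4) in range. Retsat in turn overlapped Aldh1a3 (12.99 ± 1.41) and Rdh10 (12.8 ± 10.0). Dgat1 (3.15 ± 1.96) and Aldh1a2 (0.753 ± 0.537) overlapped each other below Aldh1a3 and Rdh10, and Stra6 (0.036 ± 0.062) came last. The range of Dgat1 also overlapped that of Retsat. In CCl4-fib, Aldh1a1 (224 ± 61.5 RPKM) stood alone above Aldh1a2 (46.7 ± 11.9) and Retsat (36.0 ± 8.41), which overlapped. The next 5 places, from Aldh1a3 (14.95 ± 0.862) through Rdh10 (14.9 ± 3.90), Rbp4 (10.5 ± 1.70) and Lrat (9.32 ± 5.28) to Dgat1 (6.52 ± 0.890), overlapped from neighbour to neighbour, and Stra6 (3.33 ± 0.311) was last. In NASH-fib, Aldh1a1 (399.5 ± 175 RPKM) was again alone at the top. The order below it was Rbp4 (59.4 ± 37.7), Retsat (37.0 ± 29.8), Aldh1a2 (13.5 ± 2.58), Rdh10 (12.0 ± 7.89), Lrat (11.8 ± 6.37), Dgat1 (8.33 ± 7.26), Aldh1a3 (0.954 ± 0.593) and Stra6 (0.141 ± 0.146), each overlapping the next. Lrat thus went from the first place in HSCs to the seventh in CCl4-fib and the sixth in NASH-fib.

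For each of the 9 genes, the 3 other tested genes with the highest Pearson correlation of log2(value + 1) over the 9 libraries were found, a description that rests on groups of 3 libraries. They were Ank3 (r = 0.993), Nr1h5 (0.990) and Ifnar2 (0.988) for Lrat, and Dmkn (0.993), 2310030G06Rik (0.989) and Col6a5 (0.989) for Aldh1a2. Hist1h1b (0.981), Lgals7 (0.980) and Prss35 (0.972) were the nearest to Stra6, and Mcm2 (0.971), Rab5c (0.967) and Zmiz1 (0.961) to Aldh1a3. For Rbp4 they were Wdfy4 (0.989) and the liver genes Mup4 (0.986) and Sult2a8 (0.985), and for Aldh1a1 they were Gjb2 (0.980), Ddah1 (0.972) and Rtp3 (0.967). Retsat was nearest to Hsd17b10 (0.994), Gstp1 (0.990) and 2210013O21Rik (0.988), Rdh10 to Syncrip (0.956), Adam10 (0.955) and Fth1 (0.951), and Dgat1 to Cpeb1 (0.984), St3gal1 (0.980) and Gm20300 (0.978).

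Other genes of the retinoid pathway came from a list of 42, of which 41 were in the table and 32 were tested. Between CCl4-fib and HSCs, 17 of the 32 were called, 6 higher and 11 lower in CCl4-fib, beside 27.8% of all tested genes (16.2% higher and 11.7% lower). NASH-fib had 5 calls against HSCs, of which 4 were lower, and 5 against CCl4-fib, of which 2 were lower, where 12.5% and 10.6% of all tested genes were called. Their median log2 fold change was -0.75, -0.27 and -0.18 in these comparisons, and it was the same with the genes at 0 reads in a group set to their lower bound. Called against HSCs in NASH-fib were Bco1, Cyp26b1, Rarb and Pnpla3, all lower, and Dhrs9, higher, and their values in CCl4-fib stand beside them below, since both comparisons use the same HSC libraries.

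Bco1, which encodes the oxygenase that cleaves β-carotene to retinaldehyde, had values of 1912, 1255 and 1346 for HSCs, 13.5, 23.8 and 33.4 for CCl4-fib and 68.0, 7.13 and 35.4 for NASH-fib. Against HSCs its log2 fold change was -6.00 in CCl4-fib and -5.76 in NASH-fib (SE 0.70, adjusted p = 0.000187 and 0.00038, limma). Cyp26b1, a retinoic acid hydroxylase, had values of 448, 671 and 337 for HSCs, 21.4, 23.8 and 31.5 for CCl4-fib and 62.5, 27.6 and 45.2 for NASH-fib. Its log2 fold changes were -4.15 and -3.42 (SE 0.45, adjusted p = 0.00012 and 0.00061, limma). Rarb, a retinoic acid receptor, had log2 fold changes of -1.74 and -2.04 (adjusted p = 0.00862 and 0.00614, limma), from values of 238 to 399 in HSCs to 73.1 to 143 for CCl4-fib and 65.9 to 81.6 in NASH-fib. Rarb shares 1793 exon bases with Top2b on the opposite strand, which strandless counting cannot separate. The other 5 receptor genes tested were not called in any comparison. Pnpla3, which encodes a lipid droplet hydrolase that can act on retinyl esters, had 21, 9 and 13 reads in HSCs and 0 in CCl4-fib, and was at least 6.82-fold lower in CCl4-fib than in HSCs. This bound takes 3 reads per library as the floor. NASH-fib held 0, 1 and 2 Pnpla3 reads, and per read sequenced HSCs had 17.3 times as many (95% exact interval 5.55 to 87.3, counting error only). Pnpla3 shares 105 exon bases with Gm49513.

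Of the 13 oxidoreductase genes tested, 4 were higher and 4 lower in CCl4-fib than in HSCs, beside 16.2% and 11.7% of all tested genes. Dhrs3, which encodes a retinaldehyde reductase, had values of 949, 626 and 1267 for HSCs, 5289, 4354 and 3228 for CCl4-fib and 239, 720 and 543 for NASH-fib. It reached 3.91 reads per exon base in CCl4-fib, where the limit per position can hold down its value. Dhrs3 was higher in CCl4-fib than in HSCs (log2 fold change 2.21, adjusted p = 0.00485, limma) and lower in NASH-fib than in CCl4-fib (-3.21, adjusted p = 0.007125, limma). Dhrs4 had the same pattern, with log2 fold changes of 2.78 and -2.48 (adjusted p = 0.00811 and 0.0334, limma). Dhrs9 had 0 reads for HSCs, 33, 56 and 52 for CCl4-fib and 25, 19 and 50 for NASH-fib, and was at least 10.8-fold and 8.73-fold higher in the fibroblast groups. Rdh5 was higher in CCl4-fib than in HSCs by 3.65 (adjusted p = 0.0157, limma), though it shares 257 exon bases with Bloc1s1. The alcohol dehydrogenase Adh4 had values of 112 to 217 for HSCs, 8.59 to 34.1 for CCl4-fib and 75.7 to 564 for NASH-fib, and was lower in CCl4-fib than in HSCs (-2.92, adjusted p = 0.0168, limma) and higher in NASH-fib than in CCl4-fib (3.64, adjusted p = 0.0190, limma). Adh7, which shares 108 exon bases with an antisense gene, had the same directions, with -2.74 and 4.86 (adjusted p = 0.0393 and 0.0125, limma). Rdh16, at 0 reads in CCl4-fib, was at least 34.3-fold lower there than in HSCs and at least 13.8-fold lower than in NASH-fib, and Rdh7 was lower in CCl4-fib than in HSCs (-5.95, adjusted p = 0.00381, limma). Rdh16 and Rdh7 belong to a family of related genes between which reads may be split, and this was not measured.

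Among the lipases and acyltransferases, Lpl, which can hydrolyse retinyl esters of lipoproteins, and Lipe, hormone-sensitive lipase, which shares 866 exon bases with an antisense gene, were higher in CCl4-fib than in HSCs by 1.43 and 2.18 (adjusted p = 0.0101 and 0.0299, limma). Lipa, lysosomal acid lipase, and Dgat2 were lower, with log2 fold changes of -1.09 and -3.16 (adjusted p = 0.0209 and 0.0302, limma). Of the binding proteins, Ttr, the plasma partner of RBP4, was lower in CCl4-fib than in HSCs (-2.38, adjusted p = 0.0264, limma), with values of 740 to 3693 for HSCs, 252 to 690 for CCl4-fib and 736 to 3024 for NASH-fib. Relative to Alb, Ttr was 52.2 to 317 per 1000 in HSCs, 405 to 832 in CCl4-fib and 121 to 412 in NASH-fib. Relative to the sum of the 15 hepatocyte genes, it was 18.3 to 82.2, 19.3 to 43.8 and 47.9 to 83.8. The part of hepatocyte RNA in the level of Ttr was not tested.

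**Figure D5:**
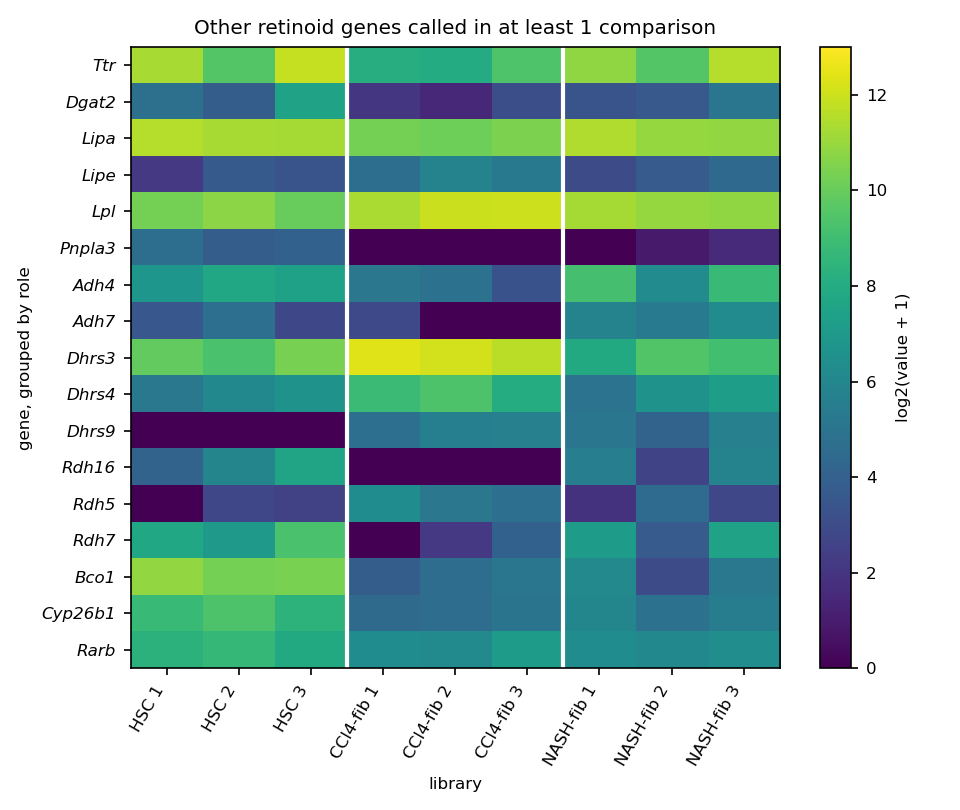
Values of the 17 other retinoid genes called in at least 1 comparison, as log2(value + 1) by color, with genes as rows and the 9 libraries as columns, white lines separating the groups. Bco1 and Cyp26b1 are brighter in HSCs, Dhrs3 and Dhrs4 in CCl4-fib, and Rdh16 and Pnpla3 are at 0 in all 3 CCl4-fib libraries.

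Markers of other cells differed between the groups beside the genes above, and their part in these differences was not tested. The ratios given for Rbp4 and Ttr are a description without a test. Summed values of 8 activated fibroblast genes were 6425 to 12427 for HSCs, 46147 to 53552 for CCl4-fib and 23712 to 28405 for NASH-fib. Of these, Col1a1, Col1a2, Acta2, Timp1 and Lox were called higher than in HSCs in both fibroblast groups, Col3a1 in CCl4-fib only and Loxl2 in neither. Postn went the other way, with means of 4523 for HSCs, 1878 for CCl4-fib and 1457 for NASH-fib. It was called lower in NASH-fib than in HSCs (log2 fold change -1.71, adjusted p = 0.0225, limma). Sinusoidal endothelial genes (8) summed to 6017 to 13231, 209 to 225 and 973 to 3233 in the same order, and macrophage genes (8) to 2899 to 9275, 128 to 252 and 432 to 1745. The sums of endothelial, macrophage and hepatocyte genes were higher in every HSC library than in every CCl4-fib library. Portal fibroblast genes (7) summed to 160.2 to 202, 7119 to 10286 and 2479 to 5546, smooth muscle genes (5) to 99.0 to 172, 2848 to 13169 and 3029 to 19001, and cholangiocyte genes (6) to 72.5 to 226, 3488 to 4778 and 6087 to 11854. Neutrophil genes (6) summed to 49.0 to 1030, 5.55 to 48.7 and 591 to 5995, and lymphocyte genes (6) to 21.1 to 51.4, 4.25 to 11.5 and 49.9 to 220.2, while CD45+ cells were gated out of both sorted groups. At or under 3 reads in every library of a group were Cd3d, Elane, Epcam, Cnn1, Lmod1 and Pi16 in HSCs and Marco, Cd3d, Cd3e, Ms4a1, Nkg7 and Ltf in CCl4-fib.

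Some libraries of different groups share the first part of their labels, the meaning of which the labels do not state. In the set shared by HSC replicate 2 and CCl4-fib replicate 1, the difference of CCl4-fib from HSCs on the log2 scale was -6.04 for Lrat, -4.51 for Rbp4, 4.35 for Stra6 and 7.27 for Aldh1a2. In the set shared by HSC replicate 3 and CCl4-fib replicate 2 it was -4.34, -4.40, 5.39 and 5.34. NASH-fib replicate 1 differed from HSC replicate 2 by -5.02 for Lrat, 5.44 for Aldh1a2 and -5.21 for Aldh1a3. Between NASH-fib and CCl4-fib, the difference for Stra6 was -5.65 in the first set and -3.63 in the set of CCl4-fib replicate 3 and NASH-fib replicates 2 and 3, and that for Aldh1a3 was -5.39 and -3.49. Every called difference of the 9 genes that could be formed within a set had the direction of the comparison over all libraries, with 1 or 2 libraries on each side and no test.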

How the data were processed

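The file deposited by the authors holds a signal per gene and library. By its header and the methods, single-end reads were aligned to mm10 with STAR, HOMER counted reads of both strands on exons keeping no more than 3 at a position and merging the transcripts of a gene, and the count of each library was scaled by a single factor, with 10 libraries in the normalization, of which 9 are columns here and 0 columns were left unused. The deposited exon length per gene (a unit classed as other) was used for RPKM. The reads behind the values were recovered by dividing out that factor, which left 100% of them whole (tolerance 0.006).

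Since the signal is not a count, limma 3.58.1 (R 4.3.3) was fitted to log2(value + 1) of the 13651 genes kept by edgeR's filterByExpr (edgeR 4.0.16, minimum count 10), in 1 fit over 3 groups, with Benjamini-Hochberg adjustment over all of them. The fit was tested on simulated data. Calls needed an absolute log2 fold change of 1 and an adjusted p under 0.05. Intervals for Stra6 are exact binomial ones at 95% and, as reads were amplified without molecular identifiers, cover counting error only. Labels do not say beyond pooling what the replicates of a group share, so p-values measure the spread between these pools. Chi-square statistics between libraries, 18.6 to 187 per gene, showed no duplicates.

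All 9 genes are named, together with each other retinoid gene called in any comparison, markers of cell types that moved with them and, for each gene, the 3 with the highest correlation. The genes and lists were chosen with earlier results of these data known. Marker lists, written by hand, covered quiescent stellate cells (without Lrat), activated and portal fibroblasts, hepatocytes, cholangiocytes, mesothelium, smooth muscle, endothelium, macrophages, neutrophils and lymphocytes. The 22 alternatives were edgeR, DESeq2 1.42.0, other normalizations, pseudocounts and filters, a fit on 2 groups, terms for replicate number, label prefix and hepatocyte markers, each library left out in turn, and, added after seeing the data, a GC curve (loess, span 0.5) and a fit without HSC replicate 2 and NASH-fib replicate 1. Promoters are those of RefSeq.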

Additional observations from a re-analysis of the deposited data

Results flagged for a closer look

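The change from HSCs differed between CCl4-fib and NASH-fib for 7 retinoid genes, by a test of the difference between the 2 changes, which is the comparison of NASH-fib with CCl4-fib, since the shared HSC libraries cancel (limma with Benjamini-Hochberg adjustment). They were 2 of the 9 genes, both lower in NASH-fib, and 3 higher and 2 lower of the 32 other retinoid genes tested. In the same comparison 10.6% of all tested genes were called (4.97% higher and 5.66% lower). Stra6 was higher than in HSCs in CCl4-fib and close to 0 in NASH-fib, a difference of -4.26 on the log2 scale. Aldh1a3 was at the level of HSCs in CCl4-fib and low in NASH-fib, a difference of -4.13. Dhrs3 and Dhrs4 had differences of -3.21 and -2.48, with the higher level in CCl4-fib. Adh4, Rdh16 and Adh7 had differences of 3.64, 4.69 and 4.86, with the lower level in CCl4-fib, and Rdh16 was at 0 reads there, so its fitted value depends on the pseudocount. The sum of hepatocyte markers was 11959 to 15738 in CCl4-fib and 12429 to 37655 in NASH-fib, and with the level of these markers as a term 0 of 13651 genes were called in this comparison (limma, with 853 at an unadjusted p under 0.05), so that the part of hepatocyte RNA in these differences was not tested apart from the group. Dixon's test for a single outlying library was not applied to these groups of 3 libraries.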

How the results depend on the processing

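Under 22 alternatives, the calls of Lrat, Aldh1a2 and Aldh1a3 in NASH-fib against HSCs held in each, and those of Lrat, Rbp4, Stra6 and Aldh1a2 in CCl4-fib against HSCs held in all but the fit with the hepatocyte term, which follows the CCl4-fib group. In that fit 0 members and 0 other retinoid genes were called in either direction between CCl4-fib and HSCs (3 and 6 at an unadjusted p under 0.05) or between NASH-fib and CCl4-fib (2 and 3), and the log2 fold change was -0.15 for Aldh1a3 (CCl4-fib against HSCs), 0.058 for Rdh10 and 0.048 for Aldh1a1 (NASH-fib against HSCs) and -0.33 for Rbp4 (NASH-fib against CCl4-fib). Between NASH-fib and CCl4-fib, 1 member, Rbp4, was called higher under edgeR, DESeq2, TMM, upper quartile, a pseudocount of 5 and the GC curve. Aldh1a2 in this comparison was called under DESeq2, a pseudocount of 5, the fit on 2 groups and 2 fits with libraries left out. The median of all genes in this comparison was -0.11, against 0.14 under edgeR and 0.068 with TMM scaling in limma.

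Some differences that were not called changed sign. Retsat in CCl4-fib against HSCs was -0.14 under edgeR and -0.095 under DESeq2, and in NASH-fib against CCl4-fib 0.16 and 0.12, where Dgat1 was 0.51 and 0.47 and, with the GC curve, 0.55. Rdh10 in NASH-fib against HSCs was 0.0092 (edgeR), 0.013 (DESeq2), 0.064 (TMM) and 0.013 (upper quartile). Lrat in NASH-fib against CCl4-fib was -0.20 with the GC curve. With the label prefix as a term, Aldh1a3 was -0.15 in CCl4-fib against HSCs, and Stra6 and Retsat were -0.16 and -0.35 in NASH-fib against HSCs.

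For the other retinoid genes, the label prefix gave 2 higher (CCl4-fib against HSCs), 2 lower (NASH-fib against HSCs) and 1 lower (NASH-fib against CCl4-fib). DESeq2 gave 7 lower in NASH-fib against HSCs and 7 higher in NASH-fib against CCl4-fib, a pseudocount of 5 gave 2 higher in the former, and no filter gave 4 lower in the latter. The replicate block changed 2 counts of these, from 3 to 5 higher in NASH-fib against CCl4-fib and from 11 to 12 lower in CCl4-fib against HSCs. The deviations of same-numbered libraries correlated with either sign (9 pairs, r from -0.47 to 0.51). As they were taken from the means of groups of 3 libraries, they cannot settle whether the numbers pair them. HSC replicate 2 and NASH-fib replicate 1, which share a label prefix, had r = 0.65. The other pairs of different groups that share a prefix had r from -0.17 to 0.040.

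With libraries left out, Retsat ran from -0.35 to 2.005, -1.16 to 1.54 and -1.56 to 0.62 in the 3 comparisons, Rdh10 from -0.50 to 0.60 and Aldh1a1 from -0.53 to 0.080 in NASH-fib against HSCs, and Lrat from -0.11 to 0.81 and Dgat1 from -1.06 to 0.81 in NASH-fib against CCl4-fib. The other retinoid genes called lower ran from 7 (without HSC replicate 1 or CCl4-fib replicate 2) to 13 in CCl4-fib against HSCs, and from 3 to 7 (without HSC replicate 2) in NASH-fib against HSCs. Between NASH-fib and CCl4-fib, 0 to 5 were higher. This count was 0 when CCl4-fib replicate 2 or NASH-fib replicate 3 was left out, 1 when it was NASH-fib replicate 1, and 5 when it was replicate 2 of HSCs or NASH-fib, and 1 to 2 were lower, with 1 without any CCl4-fib library or NASH-fib replicate 1 or 3. In the same comparison 0 to 1 members were higher, Rbp4 without HSC replicate 1, HSC replicate 2 or NASH-fib replicate 2, and 1 to 3 lower, with 1 without CCl4-fib replicate 2. The cause of these changes was not tested. Depth limits Stra6 and Aldh1a3 in NASH-fib, which rest on few reads.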

Other observations

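Of the other retinoid genes, 9 of the 41 in the table were not tested because their reads were too few. Crabp1, Sdr16c5 and Cyp26c1 had 0 reads in every library. Rbp2, the intestinal cellular retinol binding protein, had 10, 2 and 42 reads in CCl4-fib replicates 1, 2 and 3 and 0 in all other libraries. Crabp2, a cellular retinoic acid binding protein, had 5, 4 and 26 reads in CCl4-fib and 0 in all other libraries. For both genes CCl4-fib replicate 3 held most of the reads. Rbp7 had 12 and 16 reads in NASH-fib replicates 1 and 2 and at most 4 elsewhere, and Cyp26a1, a retinoic acid hydroxylase, had at most 7 reads in any library.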
